A study of Mus musculus with 9 samples.

Results

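The levels of 10 genes that mark subsets of midbrain dopamine neurons were compared between 3 Dot1l genotypes. They were chosen by name, with earlier results of these data known, and all 10 were found among the 47729 genes of the count files. The nigral set held Aldh1a1, Anxa1, Sox6, Kcnj6 and Ndnf, which mark dopamine neurons of the substantia nigra, and the ventral tegmental set held Calb1, Otx2, Cck, Vip and Grp. The libraries were RNA sequencing of dissected midbrain at 180 days, 3 per genotype and 9 in all. A library held tissue pooled from 3 mice, so p-values measure the spread between pools and not between animals. Every mouse was of a C57/Bl6 background and carried 1 Pitx3-Cre allele and the Rosa-lox-stop-lox-Yfp reporter, together with 0 floxed Dot1l alleles (Dot1l(+/+), the controls), 1 (Dot1l(fl/+)) or 2 (Dot1l(fl/fl)). Cre is made from the Pitx3 locus, so within the midbrain it acts in dopamine neurons, and the controls have the same single intact Pitx3 allele as the other groups. The tissue was the dopamine area with the dorsal midbrain and hemicortices cut away, and it was not sorted, although the series description speaks of sorted cells at E15.75. In such bulk tissue, fewer cells of a type and less RNA per cell cannot be told apart.

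Dopamine neurons of the ventral midbrain form a lateral group, the substantia nigra, whose axons reach the dorsal striatum, and a medial group, the ventral tegmental area, whose axons reach the ventral striatum and cortex. The neurons of the ventral tier of the substantia nigra make Aldh1a1, Sox6 and Anxa1 and are the ones most prone to degenerate in Parkinson's disease, while the medial and dorsal neurons that make Calb1 and Otx2 are more resistant. DOT1L is the methyltransferase of lysine 79 of histone H3, a mark found over transcribed genes.

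In Dot1l(fl/fl), 4 of the 5 nigral markers (Anxa1, Aldh1a1, Ndnf and Sox6) lay below all controls in every library, as 5.25% of all genes did. Of the 5 ventral tegmental markers, Cck and Vip lay above all controls in every library, as 5.03% of all genes did, and the means of the 5 lay between 94.9 and 118% of the control mean. Anxa1 stood furthest from controls, at 43.1% of their mean level, while Aldh1a1, Sox6 and Ndnf lay between 83.0 and 86.0%. Cck was at 118%, and Calb1, Otx2, Vip, Grp and the nigral gene Kcnj6 lay between 94.9 and 109%. None of the 10 passed an adjusted p of 0.05 in edgeR's quasi-likelihood test, nor did any other of the 17671 genes tested, and the values below are therefore given as differences and not as called changes. At an unadjusted p under 0.05 in Dot1l(fl/fl) against controls there were 694 genes, 3.93% of those tested, and 5 of the 10 members were among them. Of these, 4 members were lower, against 1.72% of all genes, and 1 was higher, against 2.21%. DESeq2 on all 9 libraries called 3 genes at an adjusted p under 0.05 in that comparison, and edgeR with the replicate number as a block called 3, with no member among them in either case.

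**Figure D1:**
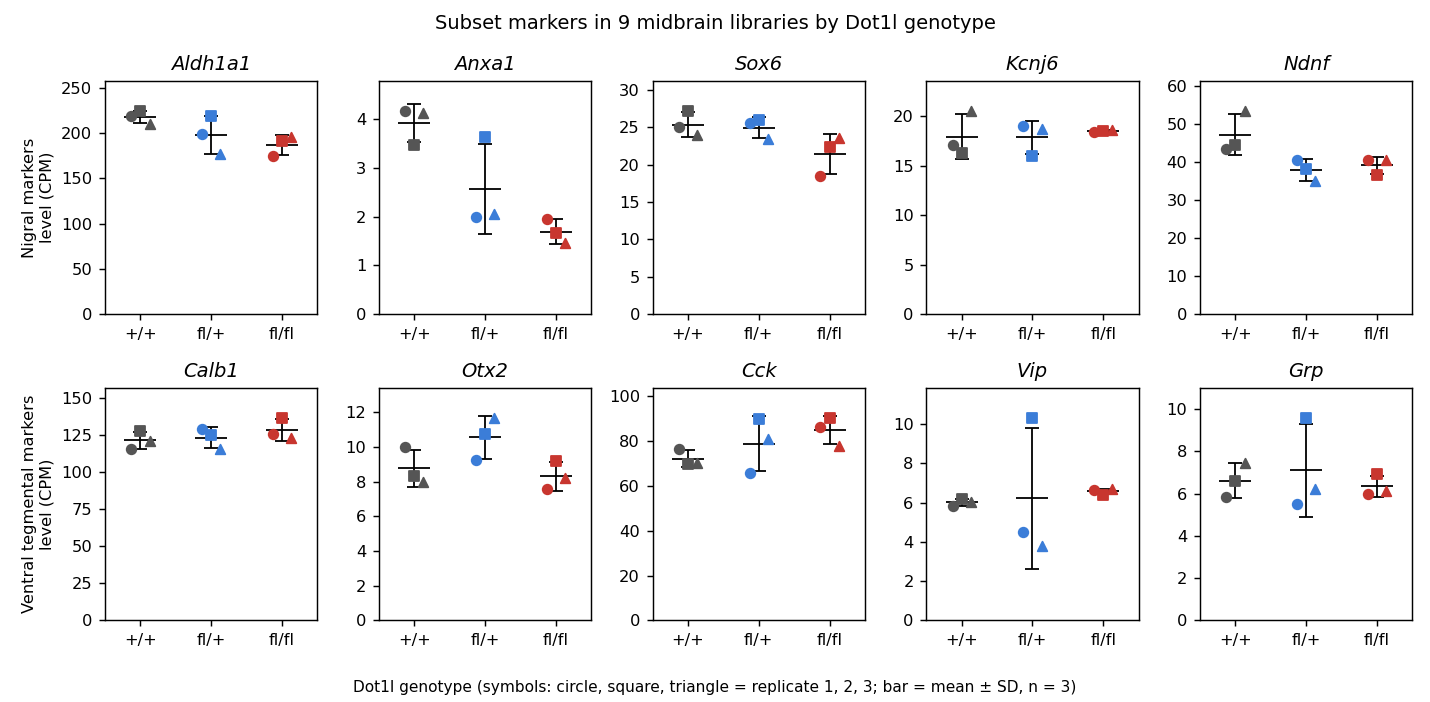
Level of each of the 10 subset markers (CPM, counts scaled to the size of the library, axes from 0) in the 9 libraries by Dot1l genotype, with nigral markers in the upper row and ventral tegmental markers in the lower one. Symbols mark replicates 1 to 3 and bars the mean ± SD of 3 libraries. Anxa1 had a mean of 3.92 CPM in controls and 1.69 CPM in Dot1l(fl/fl), without overlap, and Vip and Grp each had 1 high library, Dot1l(fl/+) replicate 2.

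The promoters of 3 members are shown. Anxa1 and Aldh1a1 were taken because they are neighbours on chromosome 19 that were both lower in Dot1l(fl/fl). Cck was taken as the only ventral tegmental marker that was higher there at an edgeR unadjusted p under 0.05. Each window holds 250 bases before and 50 after a RefSeq start site on GRCm38.p6, read on the strand of the gene, and capitals mark the only motif found. The windows are chr19:20390622-20390921 (minus strand) for Anxa1, chr19:20492333-20492632 (plus strand) for the upstream one of the Aldh1a1 start sites, and chr9:121495645-121495944 (minus strand) for Cck.
Anxa1: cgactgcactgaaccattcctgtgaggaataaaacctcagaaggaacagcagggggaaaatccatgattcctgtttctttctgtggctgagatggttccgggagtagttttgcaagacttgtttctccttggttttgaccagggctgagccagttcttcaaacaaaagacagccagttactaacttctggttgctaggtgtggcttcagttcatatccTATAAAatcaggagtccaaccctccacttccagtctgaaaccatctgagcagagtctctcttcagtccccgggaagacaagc
Aldh1a1: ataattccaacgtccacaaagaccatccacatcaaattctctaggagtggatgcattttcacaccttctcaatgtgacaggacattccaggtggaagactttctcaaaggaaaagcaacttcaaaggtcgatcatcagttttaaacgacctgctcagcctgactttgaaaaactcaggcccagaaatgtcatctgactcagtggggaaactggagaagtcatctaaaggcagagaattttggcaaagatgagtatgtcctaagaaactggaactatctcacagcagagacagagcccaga
Cck: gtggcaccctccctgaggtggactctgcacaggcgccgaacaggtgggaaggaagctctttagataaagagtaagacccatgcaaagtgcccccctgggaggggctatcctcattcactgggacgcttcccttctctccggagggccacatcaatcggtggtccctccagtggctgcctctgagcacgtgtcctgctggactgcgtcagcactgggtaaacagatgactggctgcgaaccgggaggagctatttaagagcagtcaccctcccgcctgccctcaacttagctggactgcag
The windows were searched on both strands for TATAAA (the core of a TATA box), AAAGGTCA (the element read by Nr4a2 and its relatives), TAATCC (the bicoid class, to which Pitx3 and Otx2 belong) and AACAAT (the Sox class). Anxa1 held TATAAA, starting at position −32 from the start site, a motif found in 13.6% of 32851 such promoters. No match to the 4 motifs stood in the Aldh1a1 and Cck windows, where AAAGGTCA is held by 1.51% of all promoters, TAATCC by 7.06% and AACAAT by 10.7%. The Cck window had 10 CpG and 59.3% GC, and those of Anxa1 and Aldh1a1 had 3 CpG each and 47.3 and 43.3% GC. The other Aldh1a1 window, chr19:20601718-20602017, is not printed. It had 1 CpG and 47.0% GC and held no match to the 4 motifs. Which start site the counted reads came from was not tested. A RefSeq promoter was found for 7 of the 10 members.

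The depth of the libraries ran from 16422135 to 28403218 counts, and the shallowest was Dot1l(fl/fl) replicate 3. Dot1l itself, counted over the whole gene and in all cells, was at 83.5 ± 2.85 CPM (SD, n = 3) in controls, 73.5 ± 11.96 with 1 floxed allele and 79.6 ± 4.95 with 2, and as most exons stay in the transcript and most cells lack Cre, this does not measure the deletion. The 19 genes that dopamine neurons share were all detected, as the label of the tissue implies. Libraries of Dot1l(fl/+) stood apart in tissue from neighbouring regions. Choroid plexus markers summed to 646 CPM in Dot1l(fl/+) replicate 3 and to between 47.2 and 197 CPM in the others, and hypothalamic markers to 129 and 63.4 CPM in replicates 1 and 3 of that genotype and to at most 11.6 CPM elsewhere.

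Levels can be compared between genes only per length, here as CPM per kb of exon. In controls Cck was highest, at 55.2 ± 2.90 (SD, n = 3), followed by Aldh1a1 at 44.2 ± 1.42 and Calb1 at 25.0 ± 1.21. A wide gap separated these from Ndnf, at 4.66 ± 0.531, and Grp, at 4.47 ± 0.550, whose libraries overlapped. Kcnj6 and Otx2 overlapped as well, at 2.35 ± 0.295 and 2.08 ± 0.251, and so did Vip and Sox6, at 1.77 ± 0.0545 and 1.71 ± 0.110. Anxa1 was lowest, at 1.35 ± 0.133, with no library as high as the lowest one of Sox6. For comparison, the dopamine transporter gene Slc6a3 had 44.4 ± 3.14 CPM per kb and Th had 31.8 ± 4.36. The libraries of Aldh1a1 and of the transporter overlapped. Many other neurons of the midbrain and cortex also make Cck and Calb1.

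**Figure D2:**
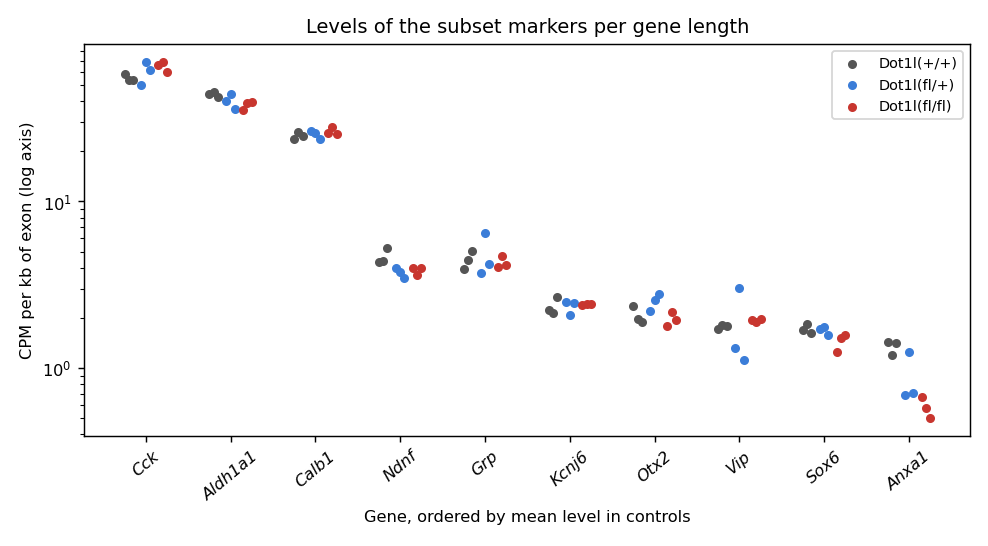
Level of the 10 markers in CPM per kb of exon (log axis), 1 point per library, coloured by genotype and ordered by the control mean. Cck, Aldh1a1 and Calb1 lay above 20 CPM per kb and the other 7 genes below 7 in every library.

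Anxa1 (ENSMUSG00000024659, chr19:20373428-20390944, minus strand, GRCm38) encodes annexin A1, a calcium-dependent phospholipid-binding protein that marks a part of the Aldh1a1 neurons of the ventral tier. Control libraries had 4.16, 3.48 and 4.13 CPM, Dot1l(fl/+) had 2.00, 3.64 and 2.06 CPM, and Dot1l(fl/fl) had 1.96, 1.66 and 1.46 CPM. All 3 Dot1l(fl/fl) libraries lay below all other libraries, whereas Dot1l(fl/+) was split, with replicate 2 inside the control range and the other 2 close to Dot1l(fl/fl). These levels rest on 81 to 110 counts in controls and on 24 to 49 in Dot1l(fl/fl). The log2 fold change of Dot1l(fl/fl) against controls was −1.20 (95% interval −1.71 to −0.69, edgeR unadjusted p = 0.000208, adjusted p = 0.918). By unadjusted p, Anxa1 ranked 4th of the 17671 genes in this comparison, after Slc6a3, Slc18a2 and Th. Adjusted p over the 18 alternative settings ran from 1.86e-05 (no filter on low counts) to 1, and it was 0.0458 without Dot1l(fl/+) replicate 2, with the log2 fold change between −1.32 and −1.11 in all of them.

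In Dot1l(fl/+) the log2 fold change of Anxa1 against controls was −0.61 (95% interval −1.08 to −0.13, edgeR unadjusted p = 0.0167, adjusted p = 0.541). The unadjusted p was 0.0515 to 0.0736 when Dot1l(+/+) replicate 3 or replicate 1 or 3 of Dot1l(fl/+) was left out, with values of −0.56, −0.46 and −0.47. Without Dot1l(fl/+) replicate 2 the value was −0.95, with an unadjusted p of 0.000228 and an adjusted p of 0.151 in edgeR. Dot1l(fl/fl) lay below Dot1l(fl/+) by −0.59 (−1.12 to −0.068, edgeR unadjusted p = 0.0297, adjusted p = 0.733), a difference that came to −0.25 without Dot1l(fl/+) replicate 2. Its unadjusted p was under 0.05 in 13 of 18 alternatives. It was 0.255 without that library, 0.0703 and 0.0849 without Dot1l(fl/fl) replicates 2 and 3, and, with only these 2 genotypes fitted, 0.0527 in edgeR and 0.0736 in DESeq2. Fitted as a slope over 0, 1 and 2 floxed alleles, Anxa1 was lower by −0.60 per allele on the log2 scale (95% interval −0.84 to −0.35, edgeR unadjusted p = 0.000121, adjusted p = 0.534). DESeq2 gave an adjusted p of 0.0361 for that slope, and over the 16 alternatives the adjusted p ran from there to 1. Microglia and other immune cells also make annexin A1. The 8 microglial markers summed to 355 to 372 CPM in controls and to 390 to 419 CPM in Dot1l(fl/fl). In Dot1l(fl/+) they summed to 355 and 398 CPM in replicates 1 and 3, which had less Anxa1 than every control, and to 424 CPM in replicate 2, which did not. The 10 meningeal and mural markers summed to 307 to 331 CPM in controls, 265 to 323 CPM in Dot1l(fl/+) and 292 to 353 CPM in Dot1l(fl/fl). The part of these cells in the Anxa1 difference was not tested.

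**Figure D3:**
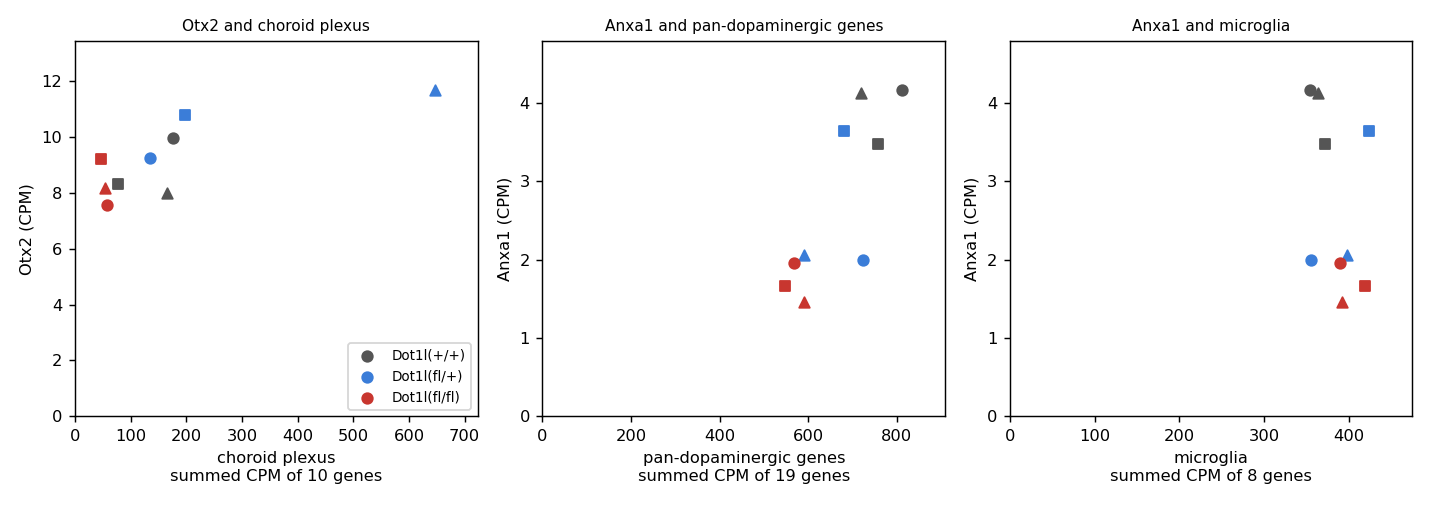
CPM of Otx2 against the summed CPM of 10 choroid plexus markers, and of Anxa1 against that of 19 dopaminergic genes and of 8 microglial markers, 1 point per library with the genotype as colour and the replicate as symbol. Dot1l(fl/+) replicate 3 stands at 646 CPM of choroid plexus markers and has the highest Otx2 level (11.7 CPM), and the Dot1l(fl/fl) libraries have the lowest Anxa1 with 390 to 419 CPM of microglial markers.

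Aldh1a1 (ENSMUSG00000053279, chr19:20492715-20643465, plus strand) encodes the aldehyde dehydrogenase also known as Ahd2, which makes retinoic acid and clears reactive aldehydes that arise from dopamine. It was at 219.5, 224.1 and 210.3 CPM in controls, at 198.9, 219.1 and 176.8 CPM in Dot1l(fl/+), and at 174.8, 191.9 and 195.4 CPM in Dot1l(fl/fl). All Dot1l(fl/fl) libraries were below all controls, with Dot1l(fl/+) spread over both ranges. The log2 fold change in Dot1l(fl/fl) was −0.22 (95% interval −0.37 to −0.065, edgeR unadjusted p = 0.00879, adjusted p = 0.999). In Dot1l(fl/+) it was −0.14 (−0.29 to 0.016, edgeR unadjusted p = 0.0759). This value came to −0.21 (unadjusted p of 0.00423) without replicate 2 of that genotype and to −0.061 (0.361) without replicate 3. Without Dot1l(fl/fl) replicate 1, which had the lowest value, the Dot1l(fl/fl) difference was −0.17 with an unadjusted p of 0.0507. The slope per floxed allele was −0.11 (95% interval −0.19 to −0.034, edgeR unadjusted p = 0.00785, adjusted p = 0.999), and it kept an unadjusted p under 0.05 in all 16 alternatives.

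Sox6 (ENSMUSG00000051910, chr7:115470872-116038796, minus strand) encodes a transcription factor needed for the nigral identity of developing dopamine neurons. Control libraries had 25.0, 27.1 and 23.9 CPM, Dot1l(fl/+) had 25.5, 26.0 and 23.4 CPM, and Dot1l(fl/fl) had 18.5, 22.4 and 23.5 CPM. Dot1l(fl/+) overlapped controls, and Dot1l(fl/fl) lay below them by a narrow margin apart from replicate 1, which was far lower. Sox6 had a log2 fold change of −0.24 in Dot1l(fl/fl) (95% interval −0.45 to −0.038, edgeR unadjusted p = 0.0239, adjusted p = 0.999) and −0.021 in Dot1l(fl/+) (−0.22 to 0.18, edgeR unadjusted p = 0.824). Without Dot1l(fl/fl) replicate 1 the first value was −0.14, with an unadjusted p of 0.142, and without Dot1l(+/+) replicate 2 it was −0.19, with one of 0.107. Sox6 is also made by oligodendrocyte precursors, whose 8 markers summed to 761 to 768 CPM in controls, 705 to 771 CPM in Dot1l(fl/+) and 753 to 783 CPM in Dot1l(fl/fl), overlapping between the genotypes.

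Ndnf (ENSMUSG00000049001, chr6:65671590-65712326, plus strand) encodes a secreted factor of neurons that also marks a class of cortical interneurons. It was at 43.5, 44.5 and 53.3 CPM in controls, 40.5, 38.2 and 35.0 CPM in Dot1l(fl/+), and 40.4, 36.5 and 40.4 CPM in Dot1l(fl/fl). Ndnf was about as low with 1 floxed allele as with 2, and none of these 6 libraries reached the lowest control. Against controls, Ndnf had a log2 fold change of −0.32 in Dot1l(fl/+) (95% interval −0.50 to −0.13, edgeR unadjusted p = 0.00256, adjusted p = 0.541) and −0.27 in Dot1l(fl/fl) (−0.46 to −0.086, edgeR unadjusted p = 0.00737, adjusted p = 0.999). Between Dot1l(fl/fl) and Dot1l(fl/+) the difference was 0.045 (−0.14 to 0.23, edgeR unadjusted p = 0.614). Without the highest control, Dot1l(+/+) replicate 3, the value in Dot1l(fl/fl) was −0.17 with an unadjusted p of 0.0523. With no filter on low counts the adjusted p in Dot1l(fl/+) was 0.0135, and over all 18 alternatives it ran from there to 0.867.

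Kcnj6 (ENSMUSG00000043301, chr16:94748636-94997701, minus strand) encodes GIRK2, the potassium channel through which dopamine D2 autoreceptors silence the cell, and many other neurons make it too. The libraries had 17.1, 16.2 and 20.5 CPM in controls, 18.96, 15.9 and 18.7 CPM in Dot1l(fl/+), and 18.35, 18.47 and 18.56 CPM in Dot1l(fl/fl). The Dot1l(fl/fl) libraries lay close together and all inside the control range. The difference from controls in Dot1l(fl/fl) was 0.040 on the log2 scale, with a 95% interval from −0.18 to 0.26 (edgeR unadjusted p = 0.707).

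**Figure D4:**
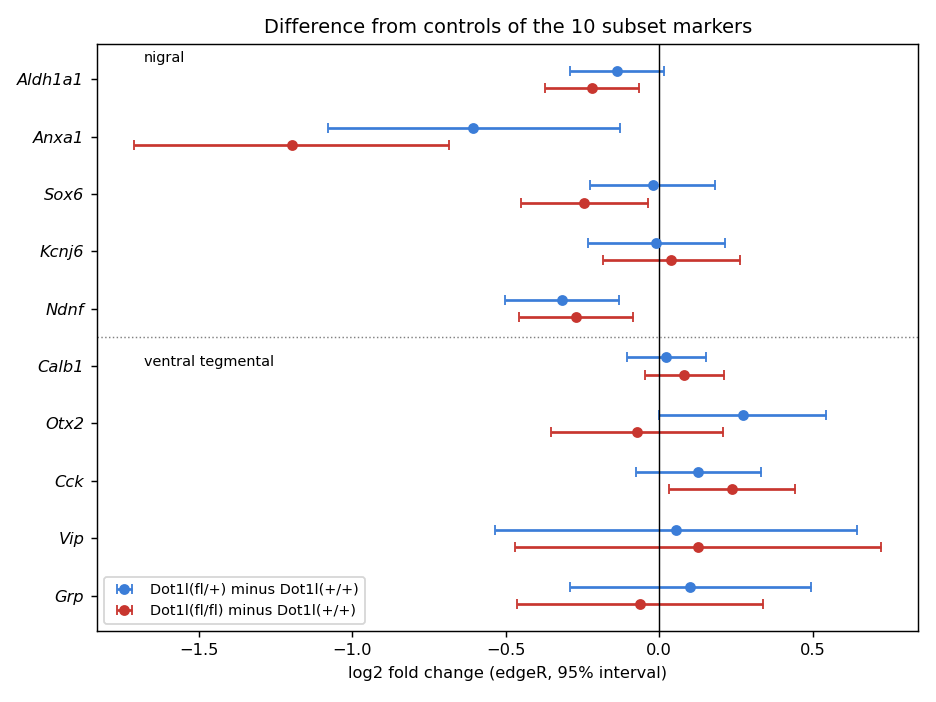
Log2 fold change of each marker against controls with its 95% interval (edgeR, 9 libraries in 1 fit), for Dot1l(fl/+) in blue and Dot1l(fl/fl) in red. In Dot1l(fl/fl) the intervals of Anxa1, Aldh1a1, Sox6 and Ndnf lie below 0, that of Cck lies above 0 and the other 5 include 0, and no gene passes the adjusted threshold.

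Among the ventral tegmental markers, Cck (ENSMUSG00000032532, chr9:121489824-121495694, minus strand), the gene of the peptide cholecystokinin that medial dopamine neurons release beside dopamine, was the member with an interval above 0. It was at 76.4, 69.8 and 69.9 CPM in controls, 65.5, 89.6 and 80.9 CPM in Dot1l(fl/+), and 86.2, 90.2 and 77.8 CPM in Dot1l(fl/fl). Every Dot1l(fl/fl) library lay above every control, with Dot1l(fl/+) on both sides. The log2 fold change in Dot1l(fl/fl) was 0.24 (95% interval 0.031 to 0.44, edgeR unadjusted p = 0.0272, adjusted p = 0.999), and it was 0.13 in Dot1l(fl/+) (−0.077 to 0.33, edgeR unadjusted p = 0.201). The Dot1l(fl/+) value was 0.24 without replicate 1 of that genotype (unadjusted p of 0.00685), 0.023 without replicate 2 and 0.042 with a length offset, a correction of each library for the trend of its counts with exon length. The Dot1l(fl/fl) value kept its sign in all 18 alternatives, and its unadjusted p exceeded 0.05 in 4 of them, each without 1 library (replicate 2 or 3 of Dot1l(+/+), or replicate 1 or 2 of Dot1l(fl/fl)). Cortical and hippocampal neurons make large amounts of Cck. The 8 markers of those neurons summed to 640 CPM in Dot1l(fl/fl) replicate 1, 623 in Dot1l(fl/+) replicate 2 and 613 in Dot1l(fl/fl) replicate 2, which were also the 3 libraries highest in Cck, and to between 471 and 576 CPM in the other 6. Their part in the Cck difference was not tested.

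Calb1 (ENSMUSG00000028222, chr4:15881264-15908064, plus strand) encodes the calcium buffer calbindin, the marker of dorsal-tier and ventral tegmental dopamine neurons, and other neurons make it as well. It was at 115.5, 127.2 and 120.6 CPM in controls, 129.0, 124.6 and 115.6 CPM in Dot1l(fl/+), and 125.2, 136.3 and 122.9 CPM in Dot1l(fl/fl). The 3 genotypes overlapped. The log2 fold changes were 0.023 in Dot1l(fl/+) (95% interval −0.10 to 0.15, edgeR unadjusted p = 0.701) and 0.082 in Dot1l(fl/fl) (−0.046 to 0.21, edgeR unadjusted p = 0.188). Of the 10 members Calb1 had the narrowest interval.

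Otx2 (ENSMUSG00000021848, chr14:48657677-48673819, minus strand) encodes a homeodomain factor of ventral tegmental dopamine neurons and is also strongly made by the choroid plexus. It was at 9.98, 8.33 and 8.00 CPM in controls, 9.25, 10.8 and 11.7 CPM in Dot1l(fl/+), and 7.56, 9.21 and 8.19 CPM in Dot1l(fl/fl). Dot1l(fl/+) was the highest genotype and lay above Dot1l(fl/fl) in every library, although its lowest value, 9.25, exceeded the highest of Dot1l(fl/fl), 9.21, by little. The log2 fold change of Dot1l(fl/+) against controls was 0.27 (95% interval −0.00040 to 0.55, edgeR unadjusted p = 0.0503, and 0.0187 and 0.0201 without replicate 1 of Dot1l(+/+) or of Dot1l(fl/+)), and that of Dot1l(fl/fl) was −0.072 (−0.35 to 0.21, edgeR unadjusted p = 0.590). Dot1l(fl/fl) differed from Dot1l(fl/+) by −0.34 (−0.62 to −0.069, edgeR unadjusted p = 0.0180, adjusted p = 0.726). The 10 choroid plexus markers summed to 76.9 to 176 CPM in controls, 135 to 646 CPM in Dot1l(fl/+) and 47.2 to 58.1 CPM in Dot1l(fl/fl), so they moved with Otx2 between Dot1l(fl/+) and Dot1l(fl/fl), and their part in it was not tested. Without Dot1l(fl/+) replicate 3, which had the most of both, the difference was −0.27 with an unadjusted p of 0.0761, and without Dot1l(fl/fl) replicate 1 it was −0.28 with one of 0.0785.

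Vip (ENSMUSG00000019772, chr10:5639218-5647617, plus strand) encodes vasoactive intestinal peptide, found in a small dorsal and caudal set of dopamine neurons and in cortical interneurons. Control libraries had 5.82, 6.18 and 6.05 CPM, Dot1l(fl/+) had 4.505, 10.3 and 3.82 CPM, and Dot1l(fl/fl) had 6.64, 6.41 and 6.67 CPM. Dot1l(fl/+) replicate 2 was far above, and the other 2 of that genotype below, every other library. Dot1l(fl/fl) lay just above controls in all 3 libraries, at a log2 fold change of 0.13 with a wide 95% interval of −0.47 to 0.72 (edgeR unadjusted p = 0.658). In Dot1l(fl/+) the value was 0.054 (−0.54 to 0.64, edgeR unadjusted p = 0.848), and without replicate 2 it turned to −0.53, with an unadjusted p of 0.00125 and an adjusted p of 0.247 in edgeR. Without that library Dot1l(fl/fl) lay above Dot1l(fl/+) by 0.66 (edgeR unadjusted p = 0.000209, adjusted p = 0.107), against 0.072 with all libraries (edgeR unadjusted p = 0.796).

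Grp (ENSMUSG00000024517, on chromosome 18), the gene of gastrin-releasing peptide, which medial dopamine neurons make, had 1 high library in common with Vip. It was at 5.82, 6.57 and 7.44 CPM in controls, 5.48, 9.58 and 6.22 CPM in Dot1l(fl/+), and 5.96, 6.92 and 6.13 CPM in Dot1l(fl/fl). Apart from Dot1l(fl/+) replicate 2, the genotypes overlapped. The log2 fold change in Dot1l(fl/fl) was −0.063 (95% interval −0.46 to 0.34, edgeR unadjusted p = 0.741), and in Dot1l(fl/+) it was 0.10 (−0.29 to 0.49, edgeR unadjusted p = 0.584), which turned to −0.18 without replicate 2. In Dot1l(fl/fl), the differences seen for Sox6 and Ndnf lay within the intervals of both Vip and Grp.

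Read as sets, the 5 nigral markers had a median log2 fold change of −0.24 in Dot1l(fl/fl), from −1.20 to 0.040, and the 5 ventral tegmental markers had one of 0.082, from −0.072 to 0.24, beside a median of 0.00090 over all 17671 genes. In Dot1l(fl/+) all 5 nigral markers were lower than controls and all 5 ventral tegmental ones higher, with medians of −0.14 and 0.10, where 51.1% of all genes were lower. This split did not hold under every alternative. Sox6 and Kcnj6 were higher with the length offset (0.040 and 0.033), Vip was lower with the replicate block (−0.016), and leaving out 1 library turned the sign of Sox6, Kcnj6, Calb1, Vip and Grp. Of the 10, only Anxa1 and Ndnf had an unadjusted p under 0.05, both lower, where 8.39% of all genes had one, 4.09% lower and 4.3% higher. Otx2, at 0.0503, came under 0.05 as a higher member in 8 of 18 alternatives. The 19 genes shared by dopamine neurons, described further on, stood beside the nigral markers in this comparison, with 17 lower, a median of −0.20 and 7 lower at an unadjusted p under 0.05. Both comparisons share the control libraries. Between Dot1l(fl/fl) and Dot1l(fl/+), Anxa1, Sox6 and Otx2 were lower at an unadjusted p under 0.05 and no member was higher, where 6.48% of all genes had one, 2.87% lower and 3.6% higher. For Sox6 this difference was −0.22 (unadjusted p of 0.0358), with a p under 0.05 in 14 of 18 alternatives. It was −0.13 (0.190) without Dot1l(fl/fl) replicate 1, and the p was 0.0799 and 0.0855 without replicates 1 and 2 of Dot1l(fl/+) and 0.0524 in DESeq2 on the 2 genotypes. With the number of floxed alleles as a slope, 3.24% of all genes had an unadjusted p under 0.05. Anxa1, Aldh1a1, Ndnf and Sox6 were lower there and Cck was higher, against 1.51% and 1.73% of all genes. The Sox6 slope was −0.12 (unadjusted p of 0.0288), with a p under 0.05 in 11 of 16 alternatives. It was 0.0699 with the length offset, which left 4 members, 0.0524 with offset and block, 0.0960 and 0.0504 without Dot1l(+/+) replicate 2 and Dot1l(fl/fl) replicate 2, and 0.166 without Dot1l(fl/fl) replicate 1, where the slope came to −0.067. The Ndnf slope went from −0.14 to −0.078 (unadjusted p of 0.102) without Dot1l(+/+) replicate 3, and the p of the Cck slope exceeded 0.05 without replicate 2 or 3 of Dot1l(+/+) or replicate 1 or 2 of Dot1l(fl/fl).

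The same was counted from the libraries without a model. Against controls, 4 members of Dot1l(fl/fl) lay entirely below, as 5.25% of all genes did, and 2 members, Cck and Vip, entirely above, as 5.03% did. In Dot1l(fl/+), only Ndnf lay entirely below controls, as 6.47% of all genes did, and no member entirely above, as 6.84% did. Between Dot1l(fl/fl) and Dot1l(fl/+), Anxa1 and Otx2 lay entirely below, as 5.14% of all genes did, and no member entirely above, as 5.98% did.

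**Figure D5:**
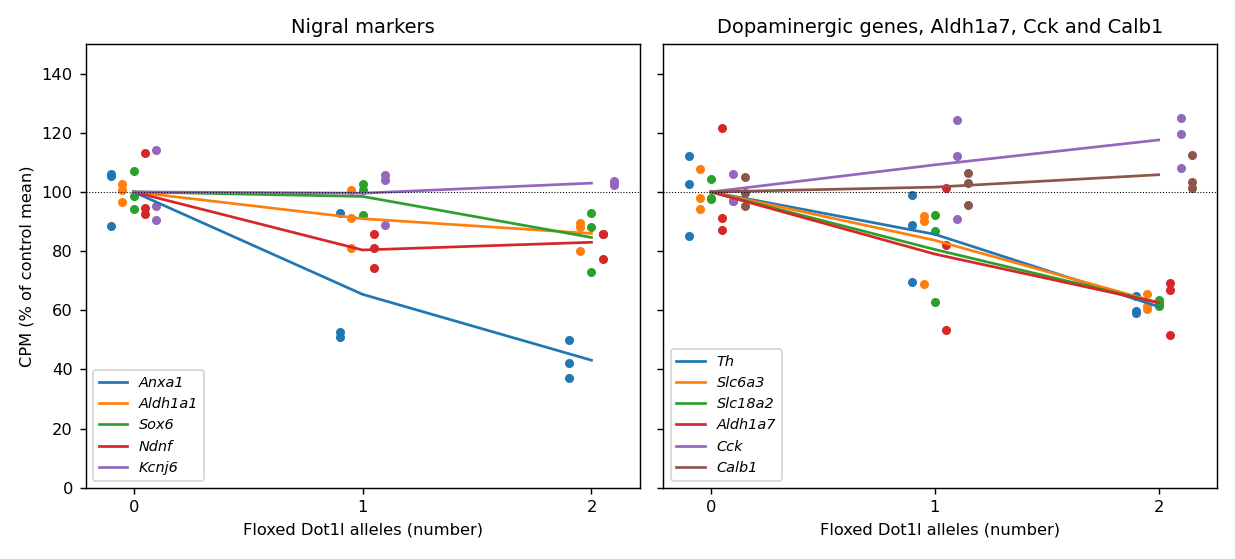
CPM as a percent of the control mean against the number of floxed Dot1l alleles, with 1 point per library and lines through the genotype means, for the 5 nigral markers and for Th, Slc6a3, Slc18a2, Aldh1a7, Cck and Calb1. At 2 alleles Anxa1 was at 43.1%, Th, Slc6a3, Slc18a2 and Aldh1a7 were at 61.2 to 62.6%, and Aldh1a1, Sox6 and Ndnf at 83.0 to 86.0%.

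Genes that all midbrain dopamine neurons share were set beside the subset markers. Th, which encodes the rate-limiting enzyme of dopamine synthesis, was at 84.3, 77.4 and 64.0 CPM in controls, 66.8, 74.4 and 52.3 CPM in Dot1l(fl/+) and 48.7, 44.5 and 45.0 CPM in Dot1l(fl/fl). The dopamine transporter gene Slc6a3 was at 165.6, 150.5 and 144.5 CPM in controls, 141.2, 138.4 and 105.7 CPM in Dot1l(fl/+), all below every control, and 94.3, 92.9 and 100.8 CPM in Dot1l(fl/fl). Neither gene overlapped between controls and Dot1l(fl/fl). Their log2 fold changes were −0.71 (95% interval −0.96 to −0.45, edgeR unadjusted p = 4.21e-05, adjusted p = 0.248) and −0.68 (−0.88 to −0.48, edgeR unadjusted p = 5.13e-06, adjusted p = 0.0906), and with the replicate block the adjusted p was 0.0258 for each. All 19 shared genes were lower in Dot1l(fl/fl), 12 of them at an unadjusted p under 0.05, with a median of −0.36. Over all genes 49.6% were lower, and 1.72% were lower at that p. The 12 were Th, Slc6a3, the vesicular transporter gene Slc18a2 (−0.68), the decarboxylase gene Ddc (−0.39), the cofactor enzyme gene Gch1 (−0.40), the receptor genes Chrna6 (−0.36) and Ret (−0.24), the transporter-like Slc10a4 (−0.32) and the transcription factors Pitx3 (−1.45), Lmx1b (−0.56), Foxa2 (−0.59) and En1 (−0.49). The medians of the shared genes and of the nigral markers were not tested against each other. Pitx3, from whose locus Cre is made, rests on 9 to 21 counts in controls and 2 to 8 in Dot1l(fl/fl).

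Further genes known for the same subsets were counted beside the 10. Of 7 other nigral genes (Aldh1a7, Lmo3, Satb1, Igf1, Vcan, Rgs6 and Fgf1), 5 were lower and 2 higher in Dot1l(fl/fl), and 1, Aldh1a7, was lower at an unadjusted p under 0.05, against 1.72% of all genes. Of 9 other ventral tegmental genes (Calb2, Slc17a6, Adcyap1, Neurod6, Lpl, Nts, Tacr3, Gpr83 and Crym), 4 were lower and 5 higher, and 1, Neurod6, was higher at an unadjusted p under 0.05, against 2.21%. The medians were −0.078 and 0.040. Neurod6, a neuronal transcription factor of medial dopamine neurons and of cortical and hippocampal neurons, was at 46.1, 41.7 and 59.1 CPM in controls and 78.4, 68.8 and 49.0 CPM in Dot1l(fl/fl), and its 3 highest libraries were the same as those of Cck and of the cortical and hippocampal markers. Its log2 fold change was 0.42 (95% interval 0.055 to 0.79, edgeR unadjusted p = 0.0272, adjusted p = 0.999), and over 18 alternatives the adjusted p ran from 1.84e-05 (no filter on low counts) to 1. The unadjusted p exceeded 0.05 in 6 of them, at 0.0823 and 0.0870 in the DESeq2 fits, 0.0778 and 0.111 without Dot1l(+/+) replicates 1 and 2, 0.0677 without Dot1l(fl/fl) replicate 2 and 0.145 without Dot1l(fl/fl) replicate 1, where the value was 0.27.

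Aldh1a7, a relative of Aldh1a1, lies next to it on chromosome 19. It was at 2.37, 3.31 and 2.48 CPM in controls, 2.23, 2.76 and 1.45 CPM in Dot1l(fl/+), and 1.40, 1.82 and 1.88 CPM in Dot1l(fl/fl), so that Dot1l(fl/fl) lay below controls in every library. Against controls the log2 fold change was −0.69 (95% interval −1.22 to −0.15, edgeR unadjusted p = 0.0165, adjusted p = 0.999), and the unadjusted p was 0.0828 without Dot1l(+/+) replicate 2 and 0.0699 without Dot1l(fl/fl) replicate 1. Of the 50-base stretches of its transcript, 7.49% also occur in Aldh1a1 transcripts, so its counts, far fewer than those of Aldh1a1, may hold shared reads and are uncertain. Among 15438 genes with a mean of at least 1 CPM, Aldh1a7 was the one whose log2 CPM was most like that of Aldh1a1 over the 9 libraries (Pearson's r of 0.963, and 0.931 with the genotype means removed), as a description of libraries that share a dissection. The gene most like Anxa1 was Vstm2b (0.941), that most like Sox6 was Samd4 (0.929) and that most like Cck was Tmeff2 (0.975). With the genotype means removed, these came to 0.867, 0.841 and 0.962. For the other 6 members the highest r lay between 0.927 (Sec22b with Calb1) and 0.988 (Abhd17b with Vip). Each is the highest of 15438 values over only 9 libraries, and how high such a maximum runs by chance was not tested.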

How the data were processed

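RNA of dissected midbrain was purified with Trizol, and directional libraries (NEBNext Ultra) were sequenced on an Illumina NextSeq. The authors aligned the reads to GRCm38.p4, and the deposited values are unnormalized counts for each Ensembl gene. The submitters' processing notes name bcl2fastq 2.17, Trimmomatic 0.30 and DESeq2 1.10.1. The aligner, the counter and the annotation release are not given in the sources used here. Further deposited tables hold the authors' own DESeq2 comparisons (fold changes and p-values) and were not used. Symbols, positions and exon lengths came from GENCODE M21 and promoters from RefSeq (GRCm38.p6).

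Counts were fitted with edgeR 4.0.16 (R 4.3.3, limma 3.58.1), with the quasi-likelihood test in a single model of the 9 libraries that had genotype as its only term, after filterByExpr (17671 genes of 47729), with TMM factors (0.988 to 1.01) and Benjamini-Hochberg adjustment over all genes tested, and again with the number of floxed alleles (0, 1 or 2) as a slope. The common biological coefficient of variation was 8.81%. CPM used TMM library sizes. Tables were made with pandas 2.3.3 and numpy 2.4.6 in Python 3.11.15, and figures with matplotlib 3.10.9. The steps were tested on simulated counts. No library was a copy of another of its genotype, as chi-square per degree of freedom between replicates was 4.47 to 16.5. With fewer than 100 counts, as for Anxa1 in most libraries, counting error is a large part of the spread.

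The members and the gene lists were chosen with earlier results of these data known. Of the 3 lists of dopaminergic genes beyond the members, the text gives values for Th, Slc6a3 and those with an unadjusted p under 0.05 in Dot1l(fl/fl) against controls or per allele, and the other genes of the nigral and ventral tegmental lists are named without values. Marker lists of 13 other tissue sources were summed, and those not given in the text (endothelial cells, oligodendrocytes, astrocytes, thalamic, GABA and serotonin neurons and blood) overlapped between Dot1l(fl/fl) and controls. Likeness was ranked as Pearson's r of log2 CPM (prior count 2).

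Same-numbered libraries may stem from paired sets of litters, as the authors pooled 1 set of genotypes from each nest. Their deviations from the genotype means correlated at 0.424 to 0.463 for replicate 1, 0.170 to 0.280 for replicate 2 and 0.0935 to 0.137 for replicate 3. The lowest value, for Dot1l(fl/fl) with controls, was under 0.1, and the labels do not state the pairing. Alternatives were DESeq2 1.42.0 (all 9 libraries, or the 2 genotypes compared), its size factors in edgeR, edgeR on the 2 genotypes, no filter, 10 counts in every library, a replicate block, an offset for gene length (a spline with 4 degrees of freedom), both together, and each library left out in turn.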

Additional observations from a re-analysis of the deposited data

How the results depend on the processing

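In the comparisons of genotype pairs and the slope, 0 genes had an adjusted p under 0.05. DESeq2 on all 9 libraries gave 7 genes for Dot1l(fl/+) against controls, 3 for Dot1l(fl/fl) against controls, 11 for Dot1l(fl/fl) against Dot1l(fl/+) and 5 for the slope, and DESeq2 on the 2 genotypes gave 45, 8 and 8. edgeR on the 2 genotypes gave 1 and 4 against controls. No filter gave 251, 118, 164 and 4. Without the filter, Neurod6 in Dot1l(fl/fl) against controls kept its log2 fold change of 0.42, but its standard error was 0.0743, against 0.17 in the main fit. That of Anxa1 was 0.212 against 0.237, so the low adjusted p-values of this setting are to be read with care. The replicate block gave 0, 3, 3 and 3, also with the length offset, and brought no member past the threshold, so the pairing changed no member's call. Leaving out 1 library at a time gave 0 to 5, 0 to 4, 0 to 12 and 0 to 3 genes. Members past the adjusted threshold were Anxa1 and Ndnf under the settings named above. The number of members with an unadjusted p under 0.05 was 2, 5, 3 and 5 in the same order. No filter gave 5 for Dot1l(fl/+) against controls, DESeq2 on the 2 genotypes gave 1 for Dot1l(fl/fl) against Dot1l(fl/+), and leaving out 1 library gave 1 to 4, 2 to 5, 1 to 3 and 3 to 5.

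The sign of these differences turned. For Dot1l(fl/+) against controls, Vip came to −0.016 with the block and −0.017 with block and length offset, and Sox6 to 0.040 and Kcnj6 to 0.033 with the length offset (0.041 and 0.035 with the block too). Leaving out 1 library at a time there gave ranges of −0.012 to 0.066 for Calb1, −0.060 to 0.036 for Sox6, −0.070 to 0.10 for Kcnj6, −0.53 to 0.31 for Vip, −0.18 to 0.26 for Grp and −0.10 to 0.24 for Neurod6. For Dot1l(fl/fl) against controls it gave −0.15 to 0.029 for Otx2, −0.023 to 0.15 for Kcnj6 and −0.14 to 0.033 for Grp. For Dot1l(fl/fl) against Dot1l(fl/+) it gave −0.0071 to 0.21 for Cck, −0.18 to 0.66 for Vip, −0.027 to 0.095 for Kcnj6, −0.32 to 0.12 for Grp, −0.0059 to 0.23 for Dot1l and −0.0092 to 0.095 for Ndnf. For the slope it gave −0.0074 to 0.072 for Kcnj6, −0.078 to 0.0030 for Grp and −0.090 to 0.025 for Otx2. The cause was not tested. Of the 10 members, depth limits Anxa1, Vip, Grp and Otx2 most, which have the fewest counts.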

Other observations

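Anxa1, Aldh1a1 and Aldh1a7 lie in 354135 bases of chromosome 19, with 101770 bases between Anxa1 and Aldh1a1 and 49487 between Aldh1a1 and Aldh1a7, and all 3 were below controls in every Dot1l(fl/fl) library (log2 fold changes of −1.20, −0.22 and −0.69), as 5.25% of all genes were. That they are neighbours was noticed after their values were seen. The stretch from 500000 bases before Anxa1 to 500000 after Aldh1a1 holds 7 annotated genes of the count files, of which 4 passed the filter on low counts. The remaining one, the lincRNA 1500015L24Rik, overlaps Anxa1 on the opposite strand, was at a mean of 0.836 CPM and had a log2 fold change of 0.044 (edgeR unadjusted p = 0.893).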
